A study of Mus musculus with 2 samples.

Results

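Neutrophil granule and alarmin genes were followed in the RNA of CD8+ T cells, Bcl11b-deficient or wild type, from infected mice. The 10 genes were chosen by name (S100a8, S100a9, Camp, Ngp, Ltf, Lcn2, Mpo, Elane, Chil3 and Slpi), with every gene probe carrying one of these names or its older form, Chi3l3 for Chil3 and Ela2 for Elane. They had 12 of the 41174 gene probes on the array, 1 spot each, and were 10 of 27597 named genes. No measured value entered the choice by name, though earlier results of these arrays were known. All 10 are textbook genes of neutrophils, but some, S100a8, S100a9, Chil3 and Slpi among them, are also made by monocytes or macrophages.

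Neutrophils carry ready-made antimicrobial proteins in granules that are filled in sequence as the cell matures in the bone marrow. Primary granules hold myeloperoxidase and elastase and are filled first, and secondary granules hold lactoferrin, cathelicidin and lipocalin and are filled later. S100A8 and S100A9 form calprotectin, an abundant cytosolic protein that sequesters zinc and manganese and, once released, acts as an alarmin, a danger signal to other cells.

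The CD8+ T cells were obtained by negative selection at day 6 of an infection with ovalbumin-expressing Listeria monocytogenes, at a labelled purity over 90%. Deficient cells came from Bcl11bF/F/dLck-iCre mice, whose floxed Bcl11b, a gene for a zinc-finger transcription factor that T-cell development needs, is deleted by a Cre that the distal Lck promoter drives in T cells, and the other group was wild type. Whether the wild-type mice carried Cre or floxed alleles, the animals' age and whether animals were pooled are not given in the sources used here. Deficient RNA was in the red dye (Cy5) and wild-type RNA in the green dye (Cy3) on both of the 2 arrays, each labelled a biological replicate, so a dye effect on a gene and an effect of genotype cannot be told apart. Bcl11b itself stood at -0.69 (replicate 1) and -2.95 (replicate 2) as a log2 ratio.

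Ratios are deficient over wild type on the log2 scale, as the mean of both arrays with the SD (n = 2). Signals are the mean brightness of a spot less its local background. Negative control spots, which match no gene, had median signals of 289 (wild type) and 921 (deficient) on replicate 1, and of 369 and 660 on replicate 2, and their median uncorrected log2 ratios were 1.67 and 0.83. The uncorrected ratios below are to be read against these values, and the normalized ratios, after loess within each array, against 0. "Well above background" is Feature Extraction's flag for a channel of a spot. Between 26.0% and 32.4% of gene spots had it, per channel and array.

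Of the 10 genes, 5 were higher in deficient cells, namely Slpi, Chil3, S100a9, S100a8 and Camp, by 3.25-fold to 11.4-fold. In RNA of a whole preparation, more cells of a type and more RNA per cell cannot be told apart. Ltf, Mpo and Ngp were tested and did not pass, and Lcn2 and Elane were well above background in neither group on either array and were not tested. Over all 9941 genes tested, limma called 3.65% higher and 5.96% lower at an adjusted p under 0.05. The 5 genes were also those above 2-fold on both arrays, as were 2.59% of all genes tested. A gene could be tested when, on each array, the same channel was well above background. Camp, Ngp and Ltf met this through the deficient channel, with wild type above on 1 of 2 arrays, so for them the filter favoured a high deficient value. The fit gave every gene the same standard error of 0.42, so a call means a mean log2 ratio beyond 1.18 in size. By limma, 0 of these genes passed in 3 of 14 alternatives, in each of which 6 had an unadjusted p under 0.05: with Feature Extraction's fitted background surface, with no filter on dim probes, and with the channels fitted separately.

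**Figure D1:**
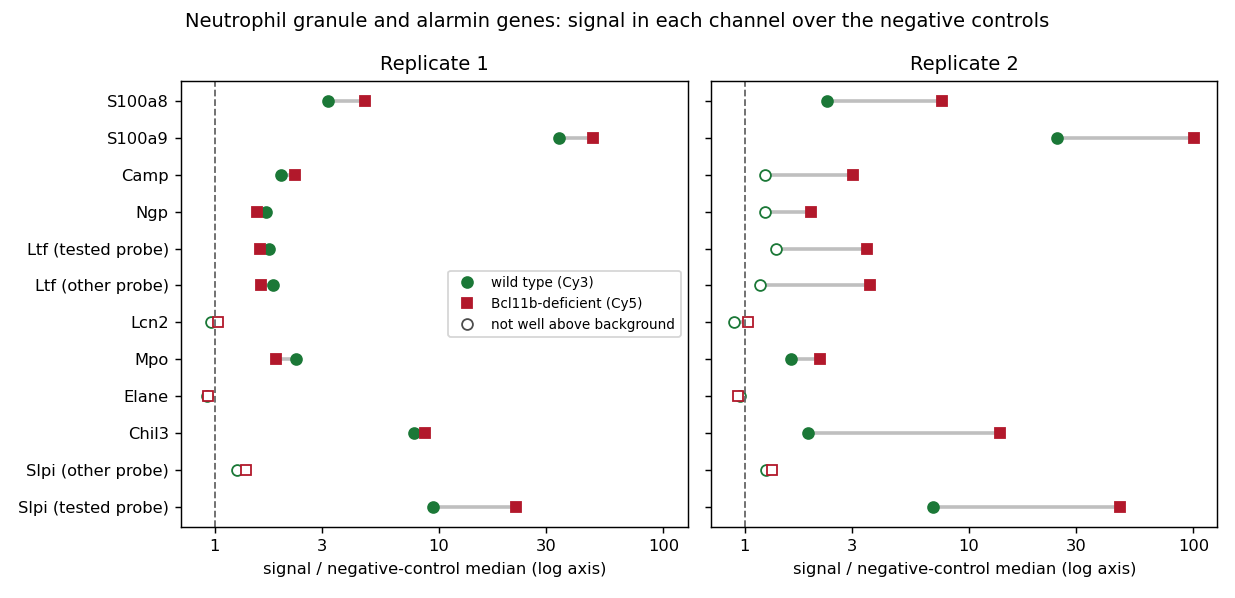
Signal of each of the 12 probes in the wild-type (green circles) and deficient channel (red squares), divided by the median signal of the negative control spots in the same channel and array (log axis), with replicate 1 left and replicate 2 right. Open symbols are not well above background, and Lcn2 and Elane lie at the dashed line of the negative controls in both channels, between 0.90 and 1.04 times their median.

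The alarmin pair rose, and both genes were well above background in both groups on both arrays. The S100a9 probe (NM_009114, chromosome 3, 90778590 to 90778649, minus strand, build NCBI36) had signals of 9921 in wild-type and 44673 in deficient RNA on replicate 1, and of 9102 and 66727 on replicate 2. Wild-type RNA thus held a signal 34.3 and 24.7 times the negative controls, and the deficient channel stood at 48.5 and 101 times. Deficient signals were above wild-type signals on both arrays, as were those of the negative controls. The uncorrected log2 ratio was 2.17 and 2.87, where gene spots of like brightness had medians of -0.65 and 0.62. After normalization S100a9 had ratios of 3.10 and 2.49, a mean of 2.79 ± 0.43 (SD, n = 2; 6.92-fold; 95% interval 1.97 to 3.61; limma adjusted p = 9.15e-09). With Feature Extraction's own ratios the mean was 2.63 and missed the threshold (limma adjusted p = 0.0539).

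S100a8 encodes the partner subunit (NM_013650, chromosome 3, 90755783 to 90755842, plus strand). Its signals were 927 in wild-type and 4300 in deficient RNA on replicate 1, and 854 and 5001 on replicate 2. Deficient RNA was higher on both arrays. The ratios were 2.69 and 2.23, with a mean of 2.46 ± 0.32 (SD, n = 2; 5.52-fold; 95% interval 1.64 to 3.28; limma adjusted p = 6.38e-07). The gap of 0.33 between S100a9 and S100a8 was smaller than the SD of S100a9. Both were higher on replicate 1 than on replicate 2 after normalization. The 2 genes lie on chromosome 3, and the 250 bases before each start are shown because they rose together. Capitals mark matches, on either strand, to TTNNGCAA (the C/EBP motif), GAGGAAG (a PU.1 motif) and TATAAA (the TATA box). Sequences are from RefSeq, build GRCm38.p6, printed 5′ to 3′ on the strand of the gene.
S100a8 promoter, chr3:90668821-90669070, plus strand: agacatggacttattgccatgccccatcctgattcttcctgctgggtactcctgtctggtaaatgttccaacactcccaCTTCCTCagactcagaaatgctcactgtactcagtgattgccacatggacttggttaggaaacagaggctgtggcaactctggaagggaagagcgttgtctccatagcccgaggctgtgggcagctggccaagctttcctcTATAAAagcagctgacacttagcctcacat
S100a9 promoter, chr3:90695722-90695971, minus strand: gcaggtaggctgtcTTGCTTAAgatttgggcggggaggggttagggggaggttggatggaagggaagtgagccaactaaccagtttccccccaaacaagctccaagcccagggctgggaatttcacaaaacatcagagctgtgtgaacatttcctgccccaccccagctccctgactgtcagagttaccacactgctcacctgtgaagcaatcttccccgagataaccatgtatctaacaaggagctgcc
S100a9 has a C/EBP match at -236 to -229 from the start, and S100a8 has a PU.1 match at -171 to -165 and the TATA box at -30 to -25. Of 32851 windows of that length in the table, 9.56% hold the C/EBP motif, 10.6% the PU.1 motif and 12.4% the TATA box. Among the 10 genes these were 5, 4 and 1. A match is a run of letters and not a measured site.

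Slpi, the secretory leukocyte protease inhibitor, which blocks neutrophil elastase and is also a macrophage product, had the highest ratio of the 10 genes. Its brighter probe (NM_011414, chromosome 2, 164045554 to 164045613, minus strand, NCBI36) had signals of 2731 in wild-type and 20279 in deficient RNA on replicate 1, and 2560 and 30941 on replicate 2. Wild-type signals were alike on both arrays, and deficient signals were several times higher on each. The ratios were 3.78 and 3.23, with a mean of 3.51 ± 0.39 (SD, n = 2; 11.4-fold; 95% interval 2.69 to 4.33; limma adjusted p = 2.67e-13). Among the 9941 genes tested this mean ranked 2. The second Slpi probe (chromosome 2, 164050768 to 164050827) was not well above background in either channel on either array, with normalized ratios of 0.37 and 0.03. The 2 probes start 5214 bases apart, while the RefSeq gene spans 2438 bases in a later build, so both would not fit within that span. Which of the 2 lies in Slpi was not tested, so the assignment is uncertain for either, the brighter one included. The bases before the Slpi start hold a C/EBP match at -241 to -234, shown because Slpi had the highest ratio.
Slpi promoter, chr2:164356508-164356757, minus strand: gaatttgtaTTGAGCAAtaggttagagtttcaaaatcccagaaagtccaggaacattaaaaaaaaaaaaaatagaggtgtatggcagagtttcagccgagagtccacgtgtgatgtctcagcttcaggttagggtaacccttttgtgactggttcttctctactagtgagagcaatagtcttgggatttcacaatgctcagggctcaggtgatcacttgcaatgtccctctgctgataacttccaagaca

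Chil3, the chitinase-like protein Ym1 of neutrophils and macrophages, differed most in its wild-type signal between arrays. Its probe (Chi3l3 on the array, NM_009892, chromosome 3, 106275623 to 106275682, minus strand) had signals of 2233 in wild-type and 7935 in deficient RNA on replicate 1, and 703 and 9101 on replicate 2. Deficient RNA stood at 8.61 and 13.8 times the negative controls, and wild-type RNA at 7.71 and 1.91 times. The normalized ratios were 2.56 and 3.53, with a mean of 3.05 ± 0.69 (SD, n = 2; 8.27-fold; 95% interval 2.23 to 3.87; limma adjusted p = 2.16e-10). Chil4, a close relative of Chil3, has its own probe (Chi3l4 on the array), which was well above background in deficient RNA on replicate 2 and in no other channel, with ratios of 0.16 and 0.79. Hybridisation of Chil4 RNA to the Chil3 probe was not tested.

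Of the secondary granule genes Camp rose and Ngp and Ltf did not pass, all with signals between 1.17 and 3.62 times the negative controls. Camp encodes cathelicidin, an antimicrobial peptide precursor (NM_009921, chromosome 9, 109704884 to 109704943, minus strand). Its signals were 571 in wild-type and 2098 in deficient RNA on replicate 1, and 455 and 2010 on replicate 2. The wild-type channel passed the background flag on replicate 1 alone. The ratios were 1.55 and 1.85, with a mean of 1.70 ± 0.21 (SD, n = 2; 3.25-fold; 95% interval 0.88 to 2.52; limma adjusted p = 0.00182). Camp also missed the threshold with median centring (1.43, limma adjusted p = 0.0962) and with Feature Extraction's ratios (2.57, limma adjusted p = 0.0688). The C/EBP, PU.1 and TATA letters searched were not in the bases before its start, nor in those of Chil3.

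Ltf, which encodes the iron-binding lactoferrin, has a pair of probes that gave the same picture, with arrays that differed. The tested probe (NM_008522, chromosome 9, 110880576 to 110883626, plus strand, a span that is longer than a probe) had signals of 506 in wild-type and 1470 in deficient RNA on replicate 1, and 507 and 2310 on replicate 2. The other probe (110885185 to 110885244) had signals of 524 and 1477, and of 432 and 2392. On replicate 1 the uncorrected ratios of 1.54 and 1.49 were at the medians of gene spots of like brightness (1.52 and 1.50). On replicate 2 they were 2.19 and 2.47, against 0.83 and 0.85. The normalized ratios were 0.36 and 1.89 for the tested probe and 0.35 and 2.30 for the other. The tested probe had a mean of 1.12 ± 1.08 (SD, n = 2; 95% interval 0.30 to 1.94; limma adjusted p = 0.0656). Ltf passed in 3 of 13 alternatives, among them the mean of both probes (1.22, limma adjusted p = 0.0360).

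Ngp, the neutrophilic granule protein, is related to the cathelicidins. Its probe (NM_008694, chromosome 9, 110266929 to 110267477, plus strand) had signals of 490 in wild-type and 1424 in deficient RNA on replicate 1, and 456 and 1308 on replicate 2. The wild-type channel passed the background flag on replicate 1 alone. On replicate 1 the uncorrected ratio of 1.54 was at the median of spots of like brightness (1.55). The normalized ratios of 0.26 and 0.97 gave a mean of 0.61 ± 0.50 (SD, n = 2; 95% interval -0.21 to 1.43; limma adjusted p = 0.402). Ngp passed in 0 of 13 alternatives. Ngp and Ltf are shown beside Slpi and S100a9 because they hold the same motif without having passed the test. Ngp has C/EBP matches at -138 to -131 and -11 to -4, and Ltf has one at -75 to -68.
Ngp promoter, chr9:110419558-110419807, plus strand: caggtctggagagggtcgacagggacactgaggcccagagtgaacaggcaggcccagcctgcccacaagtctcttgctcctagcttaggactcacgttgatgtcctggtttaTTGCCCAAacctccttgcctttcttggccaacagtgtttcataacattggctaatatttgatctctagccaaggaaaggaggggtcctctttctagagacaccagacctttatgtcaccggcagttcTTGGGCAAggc
Ltf promoter, chr9:111019042-111019291, plus strand: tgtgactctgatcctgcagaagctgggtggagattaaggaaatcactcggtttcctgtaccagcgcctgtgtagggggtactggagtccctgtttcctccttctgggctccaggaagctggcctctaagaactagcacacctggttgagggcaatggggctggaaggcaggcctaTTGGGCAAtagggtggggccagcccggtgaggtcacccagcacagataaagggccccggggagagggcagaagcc

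Lcn2, which encodes the siderophore-binding lipocalin, was not measurable here. Its probe (NM_008491, chromosome 2, 32207526 to 32207770, minus strand) had signals of 278 in wild-type and 953 in deficient RNA on replicate 1, and 332 and 684 on replicate 2, at 0.90 to 1.04 times the negative controls. The normalized ratios of 0.29 and 0.34 therefore carry no information on Lcn2 above background. Feature Extraction gave it a log2 ratio of 0 with an error of 2.04 on replicate 1 and 2.03 on replicate 2.

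Of the primary granule enzymes, Mpo was measured and Elane was not. Mpo encodes myeloperoxidase, which makes hypochlorous acid (NM_010824, chromosome 11, 87619795 to 87620570, plus strand), and was well above background in both groups on both arrays. Its signals were 667 in wild-type and 1730 in deficient RNA on replicate 1, and 594 and 1429 on replicate 2. The uncorrected ratios of 1.38 and 1.27 compare with 1.06 and 0.88 for spots of like brightness. The normalized ratios of 0.77 and 0.62 gave a mean of 0.70 ± 0.11 (SD, n = 2; 95% interval -0.12 to 1.52; limma adjusted p = 0.323). That interval leaves room for a 2-fold difference and for none. Elane, neutrophil elastase (NM_015779, chromosome 10, 79291147 to 79291206, plus strand), had signals of 268 in wild-type and 862 in deficient RNA on replicate 1, and 351 and 618 on replicate 2, which is 0.93 to 0.95 times the negative controls. Its normalized ratios were 0.09 and -0.17.

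**Figure D2:**
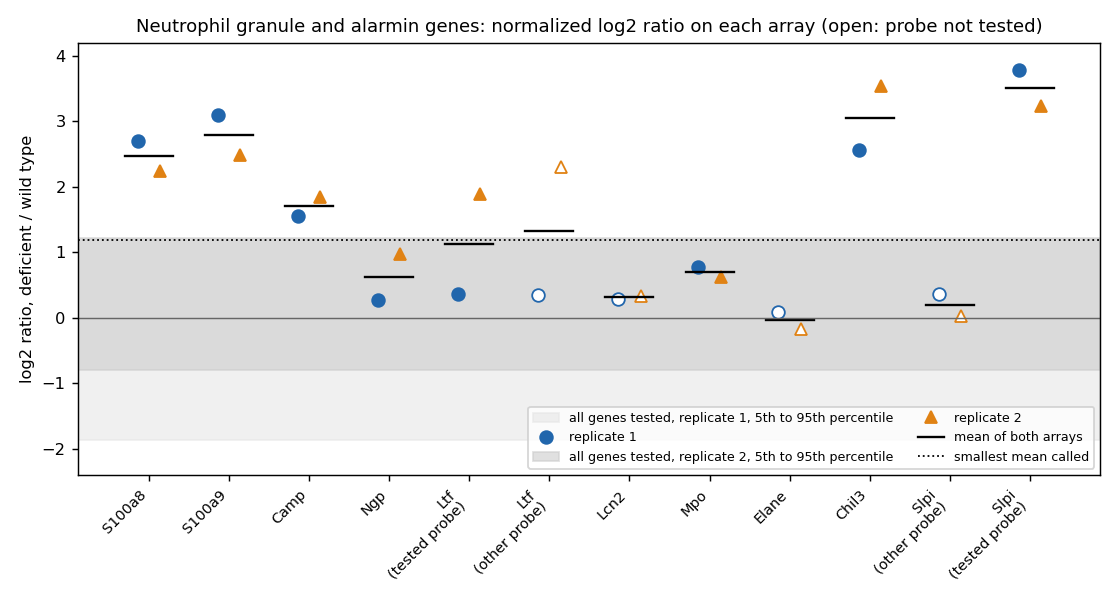
Normalized log2 ratio of each probe (vertical axis, deficient over wild type) on replicate 1 (circles) and replicate 2 (triangles), with the mean of both as a bar. Grey bands are the 5th to 95th percentile of all genes tested, -1.87 to 1.20 on replicate 1 and -0.80 to 1.22 on replicate 2, and the dotted line is the smallest mean called, 1.18. S100a8, S100a9, Camp, Chil3 and the tested Slpi probe lie above both bands on both arrays.

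In order of the mean ratio the genes ran Slpi, Chil3, S100a9, S100a8, Camp, Ltf, Mpo and Ngp. Neighbours in this order were closer than the larger of their SDs, except S100a8 and Camp, which were 0.76 apart with SDs of 0.32 and 0.21. The spread between arrays was widest for Ltf (SD 1.08) and Chil3 (0.69) and narrowest for Mpo (0.11). With 2 arrays an SD is itself poorly known.

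Other neutrophil genes were mostly dim. Of 9 further primary granule genes on the array 5 were tested: Lyz2, the lysozyme of neutrophils and macrophages, rose (2.07 ± 1.29, SD, n = 2; limma adjusted p = 6.14e-05), Cst7, an inhibitor of granule cathepsins that cytotoxic lymphocytes also express, fell (-1.55 ± 0.15, SD, n = 2; limma adjusted p = 0.00526) with deficient RNA well above background on 1 of 2 arrays, and 3 did not pass. The serpin Serpinb1a stood at 1.02 ± 0.90 and the protease-activating cathepsin Ctsc at 0.71 ± 0.52. Prtn3, Prss57, Ms4a3 and Bpi were well above background in neither group. Of 17 further secondary and tertiary granule genes 7 were tested, and the metalloproteinase Adam8 was the one that rose (2.13 ± 0.51, SD, n = 2; limma adjusted p = 3.20e-05). Haptoglobin, Hp (1.03 ± 0.88), and the gelatinase Mmp9 (0.98 ± 0.36) did not pass. The medians of the tested further genes were 0.71 for each of these lists, against -0.12 for all genes tested. Some of these genes passed the filter through the deficient channel alone, including the one at the secondary and tertiary median. The filter favoured a high deficient value for them, and a low one for Cst7, which passed through the wild-type channel alone.

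Receptors and partners of the alarmins were tested for 9 of 13 genes. Cd14, a coreceptor for endotoxin (1.46 ± 0.27, SD, n = 2; limma adjusted p = 0.0102), and Il1b, which encodes interleukin-1 beta (1.35 ± 0.63, SD, n = 2; limma adjusted p = 0.0198), rose, and 7 did not pass. Among those were the scavenger receptor Cd36 (1.14 ± 1.56) and Tlr2 (0.42 ± 0.48). Cd36 stood at 0.04 on replicate 1 and 2.24 on replicate 2. Some genes of this list, Cd36 among them, passed the filter through the deficient channel alone, which favoured a high deficient value for them. Ager, which encodes the receptor RAGE and is named here after its value was seen, stood at 0.03 ± 0.19 with wild-type RNA not well above background on either array, and Tlr4 was well above background in neither group. Of 8 further inhibitors and stefins 3 were tested and limma called 0, with Wfdc17 nearest (1.18 ± 0.44, limma adjusted p = 0.0510, and an unadjusted p under 0.05 for 2 of the 3).

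Of 19 neutrophil receptor genes 8 were tested and 2 rose, Pilrb1, an activating receptor of myeloid cells (2.64 ± 0.23, SD, n = 2; limma adjusted p = 7.05e-08), and Fpr1, the receptor for bacterial formyl peptides (2.15 ± 0.27, SD, n = 2; limma adjusted p = 2.69e-05). Fpr1 passed the filter through the deficient channel, with wild-type RNA well above background on 1 of 2 arrays. The chemokine receptor Cxcr2 stood at 0.87 ± 0.18, well above background in both groups, and the inhibitory receptor Pilra, with wild-type RNA above on neither array, at 1.01 ± 0.47. Trem1, Trem3, Fpr2, Clec4e, C5ar1, Cd300ld and Mrgpra2b were well above background in neither group, and Csf3r in deficient RNA on 1 array. Of 14 genes of mature neutrophils 9 were tested and Il1b and the histidine decarboxylase Hdc (1.34 ± 0.75, SD, n = 2; limma adjusted p = 0.0217) rose, while the resistin-like Retnlg, with wild-type RNA above on neither array, stood at 1.12 ± 0.37. Of 9 granulocyte transcription factors tested Irf8 rose (2.04 ± 0.54, SD, n = 2; limma adjusted p = 8.73e-05), which macrophages and B cells also express, and Cebpb (0.73 ± 0.07) and Stat3 (0.55 ± 0.74) did not pass. The list medians were 0.63 for receptors, 0.98 for mature neutrophils and 0.23 for transcription factors. Each of these lists holds genes that passed the filter through the deficient channel alone. The mature neutrophil and transcription factor lists also hold genes that passed through the wild-type channel alone.

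**Figure D3:**
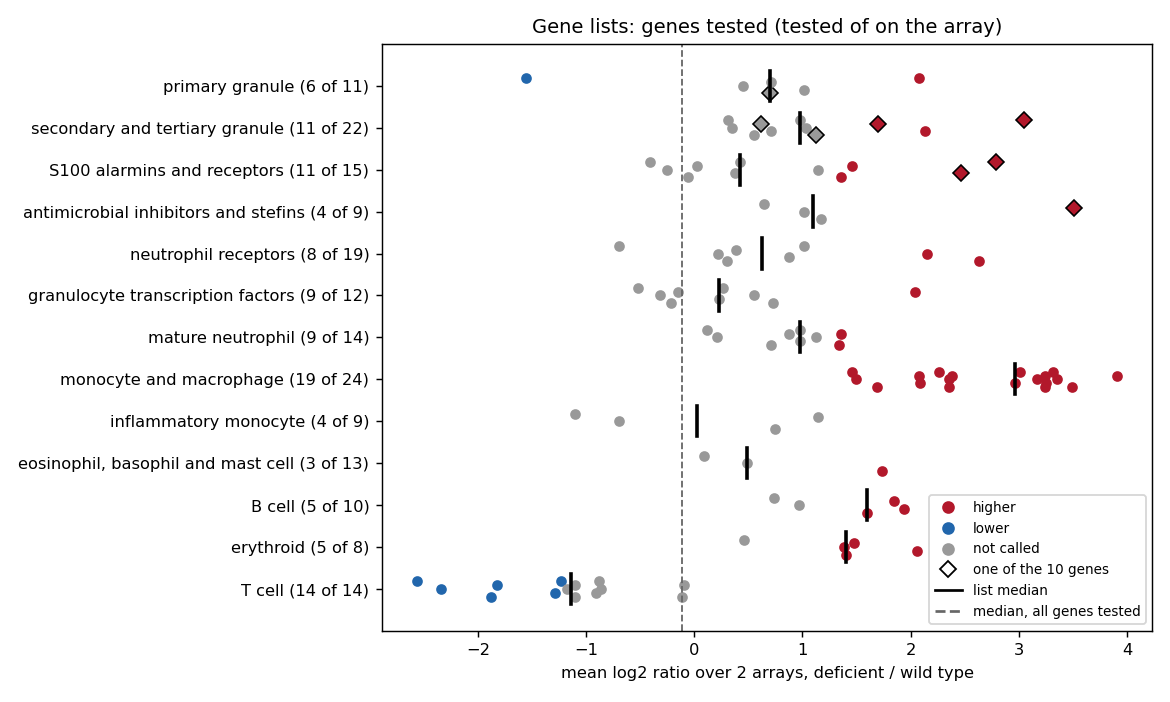
Mean log2 ratio over both arrays (horizontal axis) of each tested gene in 13 lists, with red for higher, blue for lower and grey for not called. Diamonds are the genes of the chosen set, black ticks the list medians and the dashed line the median of all genes tested, -0.12. All 19 tested monocyte and macrophage genes lie to the right of 1.18, while the neutrophil lists straddle it.

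Markers of other cells moved with these genes. Of 24 monocyte and macrophage genes 19 were tested and all 19 rose, with a median of 2.96. Apoe (3.91 ± 0.30), C1qc (3.49 ± 0.26), Adgre1 (3.35 ± 0.04) and Vcam1 (3.32 ± 0.07) were highest. The summed normalized intensity of that list was 27401 to 40651 in wild-type RNA and 247902 to 303333 in deficient RNA. Of the neutrophil lists without any of the 10 genes, mature neutrophils summed to 6075 to 6590 in wild-type and 9098 to 12484 in deficient RNA, receptors to 29668 to 30045 and 33744 to 38228, and transcription factors to 19110 to 20212 and 32633 to 37103. The lists that hold some of the 10 genes summed to 8389 to 18286 and 31309 to 32663 for primary granules, and to 11202 to 14028 and 32560 to 33788 for secondary and tertiary granules. The alarmin list summed to 24380 to 26412 and 66117 to 98211, and the inhibitors to 5955 to 6951 and 26751 to 42762. In each of these 7 lists both deficient sums were above both wild-type sums, with no test. The same held for every other list but the T-cell list, so it is not particular to neutrophil genes. T-cell genes went the other way, with 6 of 14 lower, led by the surface receptor Cd6 (-2.56 ± 1.44), the T-cell receptor chain Cd3e (-2.34 ± 0.53, with deficient RNA well above background on 1 of 2 arrays), the surface receptor Cd5 (-1.88 ± 1.29) and the chain Cd3g (-1.82 ± 0.21). Cd8a, which marks the labelled cells and is named here after its value was seen, was well above background in both groups, stood at -0.91 ± 0.33 and did not pass. The T-cell list had a median of -1.14 and sums of 214247 to 247570 in wild-type and 87232 to 124590 in deficient RNA. Of the inflammatory monocyte genes 4 were tested and limma called 0, while 2 had an unadjusted p under 0.05, Plac8 (1.14 ± 0.06) and Ms4a4c (-1.10 ± 0.33), in opposite directions. The part of these cells in the ratios of the 10 genes was not tested.

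Granulocytes of other kinds were hardly measured. Of 13 eosinophil, basophil and mast cell genes 3 were tested, and the eotaxin receptor Ccr3 rose (limma adjusted p = 0.00144), and no fold is given because wild-type RNA was above background on neither array. Prg2 (0.48 ± 0.12) and Prg3 (0.09 ± 0.34) did not pass, and 9 of the 13 were well above background in neither group on either array. Of B-cell genes 3 of 5 tested rose (median 1.59, with Ms4a1 at 1.94 ± 0.74), and of erythroid genes 4 of 5 (median 1.40, with Hbb-bt at 2.06 ± 0.98).

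The genes most like S100a9 were not the other neutrophil genes. By Euclidean distance over 4 channel values (2 groups on 2 arrays, each gene centred on its mean) the nearest were Itgb5 (0.16), Prxl2b (0.21), Tyrobp (0.23), Tgm2 (0.29) and Abcc3 (0.29). Their mean log2 ratios ran from 2.69 to 3.01. S100a8 was at 0.40, Slpi at 0.72, Camp at 1.20, Chil3 at 1.41, and Ltf, Mpo and Ngp beyond 2. All 4 values come from the same 2 arrays and 1 dye orientation.

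**Figure D4:**
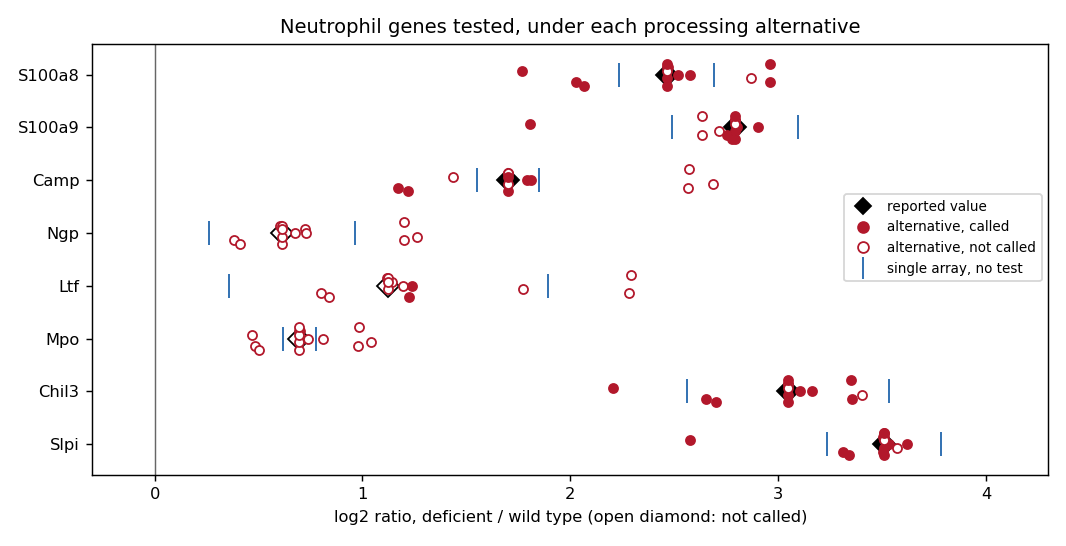
Log2 ratio of the 8 tested genes (horizontal axis) as reported (diamond), under each processing alternative (circles, filled where limma called the gene) and on each single array (blue bars, no test). Every value lies above 0. Over the alternatives Slpi ran from 2.58 to 3.62, Chil3 from 2.20 to 3.40, S100a9 from 1.81 to 2.90 and S100a8 from 1.77 to 2.96. Each of these genes was lowest with median centring in place of loess. Camp ran from 1.17 to 2.69, Ltf from 0.80 to 2.29, Ngp from 0.38 to 1.26 and Mpo from 0.47 to 1.04.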

How the data were processed

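Linearly amplified RNA of deficient (Cy5) and wild-type (Cy3) CD8+ T cells was hybridised together to 2 Agilent arrays. Per the file headers, the authors' spot intensities were extracted with Agilent Feature Extraction 9.5.3.1, which also gives the deposited log10 ratios and a p-value per spot; these p-values decided no call here. The deposited value table holds the same log10 ratios, rounded, and served as an alternative. Mean and local background signals were corrected by normexp (offset 50) and normalized by loess within each array, control spots at weight 0. Probes needed 1 channel well above background on both arrays, and the brightest such probe stood for its gene. Where the deposited log10 ratios were used, they were turned into log2. For each gene limma 3.58.1 (R 4.3.3) set the mean of both arrays against 0, Benjamini-Hochberg adjusted over 9941 genes at 0.05. The fit was also run on simulated ratios with equal, independent noise for every gene and both arrays, and no dye effect. The arrays here differed in spread (SD of log2 ratios 0.96 on replicate 1 and 0.65 on replicate 2). That run therefore does not vouch for the p-values. Probe positions are those of the scanner files (NCBI36), promoters and gene names those of RefSeq GRCm38.p6. Exons were not assigned. In the main fit, the p-values and intervals rest on a spread between these 2 arrays pooled over all genes, so a gene's own SD does not enter them. The number of arrays limits the precision.

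The members and lists were chosen with earlier results of these data known. From each list up to 4 other genes with the largest ratios among those called, and up to 2 among those not called, could be named. The genes most like S100a9 were the 5 nearest over the 4 channel values. Genes with clone, predicted-gene or accession names, or with a name found on the array only, were left out first. Alternatives covered background correction, normalization, the filter, the probe rule and the model.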

Additional observations from a re-analysis of the deposited data

How the results depend on the processing

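S100a8, S100a9, Mpo, Chil3 and Slpi kept a ratio above 0 in the 14 alternatives tried, and Camp, Ngp and Ltf in the 13 that could test them. Alternatives that changed only the filter or the model left these ratios unchanged, so they could not test the sign. With both channels required above background Camp, Ngp and Ltf were not tested, and 4 of the 10 genes were higher. With the fitted background surface S100a8 was at 2.87, S100a9 at 2.71, Camp at 2.69, Chil3 at 3.40 and Slpi at 3.57, and none passed. With no filter on dim probes (2.46, 2.79, 1.70, 3.05 and 3.51 in that order) and with separate channels (the same 5 values) none passed either. Under these 3 settings limma called 0 of the 10 genes, 0 genes higher and 0 lower. In the same order, 1437, 5116 and 1994 genes had an unadjusted p under 0.05, of 9568, 27595 and 9941 tested. With no filter Chil3, with the larger ratio, had a limma adjusted p of 0.239 and S100a8 one of 0.216. The mean ratio alone thus did not set the p-value there, unlike in the main fit. Why none passed was not tested. With Feature Extraction's ratios and with the deposited values, S100a9 (2.63 in both) and Camp (2.57 in both) did not pass, leaving 3 of the 10 genes. Camp also did not pass with median centring (1.43). Ltf passed with negative controls as background (1.12), with genes centred (1.24) and as the mean of its probes (1.22). Genes higher numbered 69 with median centring, 56 with Feature Extraction's ratios, 55 with the deposited table and 560 with both channels above background. Genes lower numbered 184 with no background correction, 315 with plain subtraction, 350 with median centring, 76 with Feature Extraction's ratios and with the table, and 220 with both channels above. The share of lower among called genes was 62.0%, and 38.9% with no background correction, 43.6% with plain subtraction, 83.5% with median centring, 51.1% with genes centred and 28.2% with both channels above. The median of all genes moved from -0.12 to -0.41 with median centring and to 0.06 with both channels above. On single arrays the ranges were 2.23 to 2.69 for S100a8, 2.49 to 3.10 for S100a9, 1.55 to 1.85 for Camp, 0.26 to 0.97 for Ngp, 0.36 to 1.89 for Ltf, 0.62 to 0.77 for Mpo, 2.56 to 3.53 for Chil3 and 3.23 to 3.78 for Slpi, with no test. The log2 ratio within each array already pairs the genotypes, and the fit with separate channels is the alternative to it. Lcn2 and Elane are limited by signal at the negative controls.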
